A study of Mus musculus with 12 samples.

Results

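The genes described are 10 core components of the circadian clock, Per1, Per2, Per3, Cry1, Cry2, Arntl, Nr1d1, Nr1d2, Dbp and Tef, taken by symbol from the 20718 genes of the expression table. All 10 were in the table, and all 10 were among the 16320 genes that passed the filter on low counts. Their levels were followed over 12 RNA-seq libraries of total RNA from testes of F0 mice of the strain given as IRC mouse, to see whether the groups differed in the state of the clock, as they could if collected at different times of day. The 4 groups of 3 libraries were KD, in which a virus inhibited the long noncoding RNA lncRNA8276, OV, in which a virus raised it, and 3NC and 5NC, 2 groups known only by these abbreviations. They were taken here as control viruses, and OV was set against 5NC and KD against 3NC, a pairing inferred from the order of the groups in the design statement. The labels give no collection time, age, virus type, dose or interval after injection, nor do they state that each library is a separate animal. The p-values therefore measure only the spread between these libraries, which may be technical.

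The mammalian clock is a feedback loop of transcription. ARNTL (also called BMAL1) pairs with CLOCK and binds E-box sequences in the genes of the PER and CRY proteins, which return to the nucleus and inhibit that pair. In a second loop the nuclear receptors NR1D1 and NR1D2 (REV-ERB alpha and beta), themselves E-box targets, repress Arntl, so that Arntl runs in antiphase to them. DBP and TEF are transcription factors of the PAR bZIP family that carry the rhythm to D-box sequences in output genes and in Per genes. In liver and most other organs many, though not all, of these transcripts swing widely over the day. The testis is known for weak or absent rhythms and for high Per1 in developing germ cells.

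The sequences that link these genes were looked for in the 250 bases before transcription starts listed by RefSeq for GRCm38.p6 (the assembly also called mm10). The search covered 12 start sites for the 10 genes and 32851 for all genes, but not every start of each gene. By the gene coordinates, Per1 begins at 69095108 and Arntl at 113178471, upstream of all their searched windows. The sequences are shown because they are the letters through which the clock proteins act on each other's genes. The E-box CACGTG, a palindrome counted once, was present before 4 of the 12 start sites and before 6.02% of all start sites. These were a start of Per1, that of Cry1 and both searched starts of Tef. The D-box, searched as TTATGTAA and TTACGTAA on both strands, was present before 1 of the 12, that of Per3, which holds it 2 times, and before 0.931% of all. The core of the ROR element, through which NR1D1 acts, searched as TAGGTCA and TGGGTCA, had no match in the 12 windows and one in 5.38% of all, and the cAMP response element TGACGTCA had none in the 12 and one in 1.55% of all. A match describes the letters in the window only. In the lines below each stretch of 50 bases is written 5′ to 3′ on the strand of the gene, with the E-box or D-box in capitals. Per1 is on the plus strand at chr11:69098761-69098810 (E-box 166 bases before the start), Cry1 on the minus strand at chr10:85185087-85185136 (60 bases), Tef on the plus strand at chr15:81802524-81802573 (127 bases) and, for the other start, chr15:81811254-81811303 (138 bases), and Per3 on the minus strand at chr4:151044843-151044892 (205 bases) and chr4:151044796-151044845 (158 bases).
Per1 E-box: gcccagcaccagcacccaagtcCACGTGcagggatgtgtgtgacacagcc
Cry1 E-box: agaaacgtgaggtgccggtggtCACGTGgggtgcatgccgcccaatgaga
Tef E-box, first start: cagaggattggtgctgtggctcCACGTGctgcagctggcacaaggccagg
Tef E-box, other start: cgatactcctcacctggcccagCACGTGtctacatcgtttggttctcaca
Per3 D-box, distal: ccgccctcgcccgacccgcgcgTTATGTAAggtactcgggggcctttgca
Per3 D-box, proximal: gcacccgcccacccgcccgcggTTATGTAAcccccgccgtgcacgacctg

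All 10 clock genes were expressed in every library. On the FPKM scale, reads per gene length and library total, which allows levels of different genes to be compared, Per1 stood first with 34.7 ± 3.89 (SD over 12 libraries), followed by Cry1 with 19.2 ± 2.02 and Tef with 10.1 ± 1.36. Nr1d1 (7.63 ± 0.957), Cry2 (7.36 ± 0.649), Nr1d2 (5.46 ± 0.847) and Dbp (4.61 ± 1.01) formed the middle, and Arntl (1.98 ± 0.302), Per3 (1.54 ± 0.203) and Per2 (1.43 ± 0.171) the end of the order. The ranges of neighbours in this order did not overlap at 3 steps, Per1 over Cry1, Cry1 over Tef and Dbp over Arntl. The ranges of all other neighbours overlapped: Nr1d1 exceeded Cry2 in 8 of 12 libraries and Per3 exceeded Per2 in 8 of 12. In the whole testis, fewer cells that express a gene and less RNA per cell cannot be told apart.

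The typical spread of the clock genes between libraries was close to that of all genes tested. The highest library was 1.36-fold above the lowest for Cry1, 1.52-fold for Per1, 1.68-fold for Arntl and 2.14-fold for Dbp, which varied most. The SD of log2 CPM (counts per gene scaled to library size) over the 12 libraries had a median of 0.18 over the 10 genes, from 0.12 in Cry2 to 0.30 in Dbp, and a median of 0.19 over the 16320 genes tested.

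**Figure D1:**
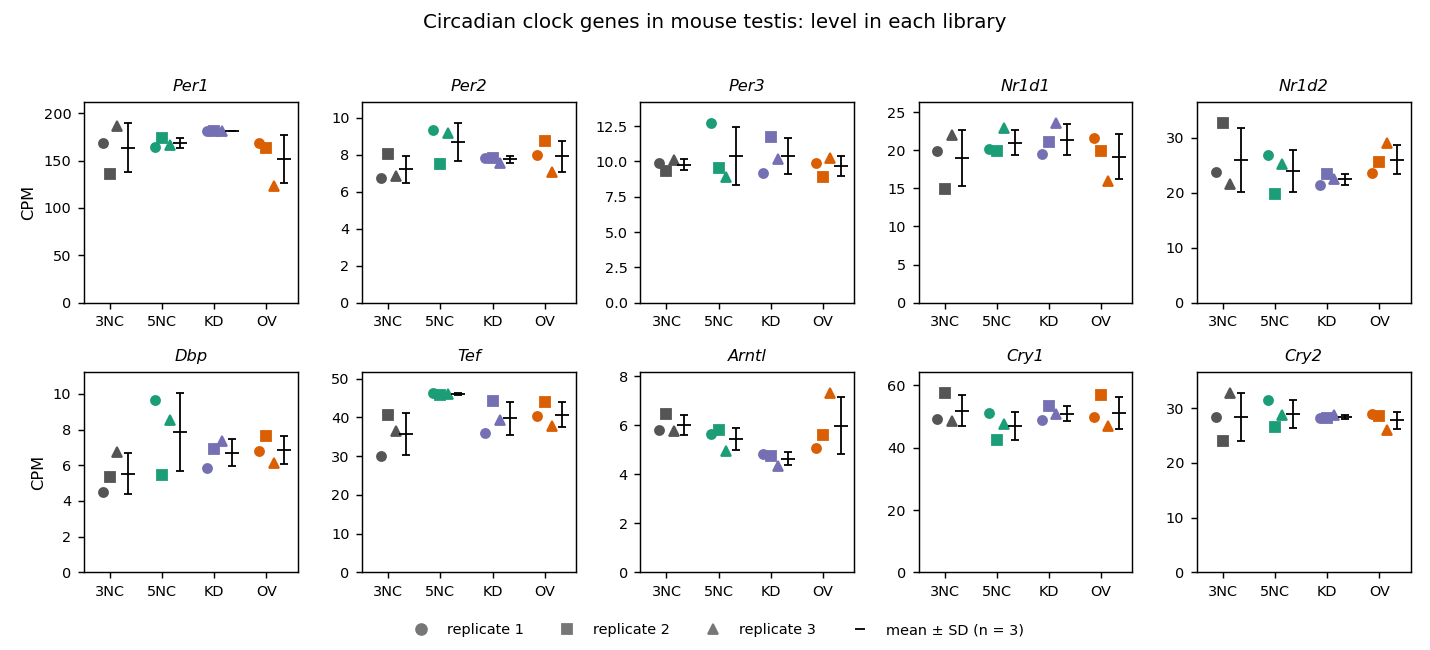
Level of each clock gene in CPM (vertical axes, from 0) in each library of the 4 groups, with symbols for replicates 1 to 3 and the mean ± SD (n = 3) beside them. The 4 groups overlap with each other for 6 of the 10 genes. Tef stands higher in all 5NC libraries than in any other, Arntl lower in all KD libraries than in any other, Per1 higher in KD than in 5NC and OV, and Nr1d2 lower in KD than in OV.

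No clock gene differed between groups after adjustment over all genes. In edgeR's quasi-likelihood test of any difference among the 4 groups, 0 of the 10 genes passed an adjusted p of 0.05 (smallest adjusted p = 0.537, Tef), where 0.337% of all genes passed. At an unadjusted p under 0.05 it was 1 of 10, beside 9.07% of all genes. Over the 6 pairwise comparisons 0 of 60 values passed (smallest adjusted p = 0.284, Tef in 5NC against 3NC) and 5 had an unadjusted p under 0.05. These were 2 of 10 in 5NC against 3NC (12.1% of all genes), 1 in KD against 3NC (6%) and 2 in OV against KD (7.84%), with 0 in OV against 5NC (10.4%), OV against 3NC (5.34%) and KD against 5NC (5.06%). DESeq2 and limma on FPKM also called 0 clock genes in each comparison. The share of all genes called was 0% in OV against 5NC, 0.178% in KD against 3NC, 0.362% in 5NC against 3NC, 0.319% in OV against 3NC, 0.049% in KD against 5NC and 0.0551% in OV against KD, so a list of 10 genes with none called is close to that background. The values for OV against 5NC come from the fit without pairing, although same-numbered libraries of these groups deviated together. A replicate block within those libraries called many more genes and 0 clock genes, as given below. None of the 60 approximate 95% intervals reached a 2-fold difference in either direction (the widest reached 1.94-fold), and 52 of 60 lay within 1.5-fold.

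**Figure D2:**
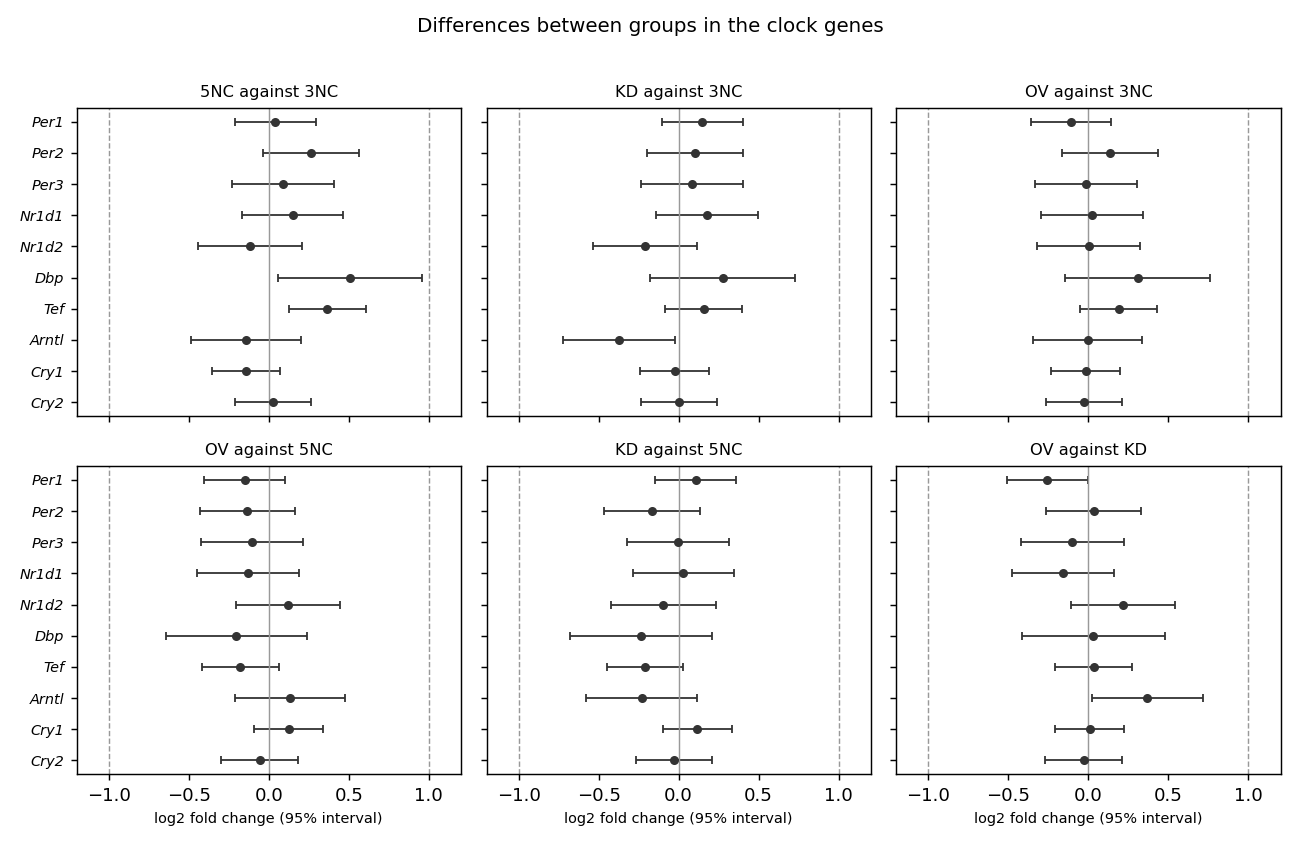
Log2 fold change of each clock gene (points) with its approximate 95% interval (bars) in the 6 pairwise comparisons; the solid line marks no difference and the dashed lines a 2-fold difference. All 60 intervals lie between the dashed lines.

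The PER and CRY repressors were close to level. Per1 (chromosome 11, 69095108 to 69109965) had 169, 136 and 187 CPM in 3NC, 164, 174 and 167 in 5NC, 182, 182 and 181 in KD and 169, 164 and 123 in OV. The KD libraries lay close together and above all OV libraries, while 1 library each of 3NC and OV fell well below its group. The log2 fold change was −0.15 ± 0.12 (SE) in OV against 5NC, 0.15 ± 0.12 in KD against 3NC and −0.26 ± 0.12 in OV against KD (unadjusted p = 0.0463, adjusted p = 0.625). Without OV replicate 3, the library with the least Per1, the difference between OV and KD was −0.12 ± 0.10. Libraries of OV and KD did not overlap for 3 of the 10 clock genes, Per1, Nr1d2 and Arntl, beside 19.4% of all genes, and those of KD and 5NC for 3, Per1, Tef and Arntl, beside 13.7%. OV and 3NC overlapped for all 10, beside 7.76% of genes without overlap. Per2, a close relative with far fewer reads, lay between 6.75 CPM in a 3NC library and 9.34 in a 5NC library. Its largest difference was 0.27 ± 0.14 in 5NC against 3NC (adjusted p = 0.446). Per3, the member least needed for the core loop, lay between 8.9 and 12.7 CPM, with 0.09 ± 0.15 in KD against 3NC and −0.10 ± 0.15 in OV against 5NC.

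Cry1 lay between 42.3 and 57.5 CPM and Cry2 between 23.9 and 32.7. Group means of Cry1 were 51.8 ± 4.97 CPM in 3NC, 46.9 ± 4.38 in 5NC, 51 ± 2.36 in KD and 51.2 ± 5.07 in OV (SD, n = 3). For Cry2 they were 28.4 ± 4.38, 28.9 ± 2.52, 28.4 ± 0.337 and 27.8 ± 1.57 in the same order. These 2 genes had the narrowest intervals: Cry2 in KD against 3NC had a log2 fold change of 0.00 with a 95% interval of −0.24 to 0.24, and Cry1 −0.02 with −0.24 to 0.19.

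Arntl, the activator of the loop (chromosome 7, 113178471 to 113314126), had 5.78, 6.45 and 5.78 CPM in 3NC, 5.62, 5.78 and 4.93 in 5NC, 4.84, 4.73 and 4.34 in KD and 5.06, 5.58 and 7.3 in OV. All KD libraries lay below all libraries of the other groups. The log2 fold change in KD against 3NC was −0.37 ± 0.16 (95% interval −0.72 to −0.03; unadjusted p = 0.0372, adjusted p = 0.764), and in OV against KD 0.37 ± 0.16 (adjusted p = 0.617). The OV effect (against 5NC) minus the KD effect (against 3NC) was 0.51 ± 0.23 (unadjusted p = 0.0423, adjusted p = 0.309), where 0.0613% of all genes were called and 15.7% had an unadjusted p under 0.05. Without OV replicate 3, the library with the most Arntl, these 2 values were 0.20 and 0.34, and with 3NC replicate 2 also left out they were 0.20 and 0.28. Arntl was 1 of 10 clock genes without overlap between KD and 3NC, beside 16.5% of all genes, and these counts rest on 217 to 285 reads per group.

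The 2 REV-ERB genes, whose products repress Arntl, differed in which libraries were high. Nr1d1 (chromosome 11, 98767932 to 98775377) had 19.9, 14.9 and 22 CPM in 3NC, 20.1, 19.9 and 22.9 in 5NC, 19.6, 21.1 and 23.5 in KD and 21.7, 19.9 and 15.9 in OV. Nr1d2 (chromosome 14, 18204056 to 18239106) had 23.8, 32.6 and 21.6 CPM in 3NC, 26.9, 19.7 and 25.2 in 5NC, 21.4, 23.4 and 22.6 in KD and 23.7, 25.5 and 29 in OV. The libraries with the least Nr1d1, replicate 2 of 3NC and replicate 3 of OV, were those with the most Nr1d2. In KD against 3NC the log2 fold change was 0.18 ± 0.15 for Nr1d1 and −0.21 ± 0.15 for Nr1d2, and in OV against 5NC −0.13 ± 0.15 and 0.12 ± 0.15 (adjusted p = 0.739 to 0.782 for these 4 values). Without 3NC replicate 2 the values in KD against 3NC were 0.032 for Nr1d1 and −0.0134 for Nr1d2.

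Within the comparison of 5NC with 3NC, the PAR bZIP output genes Dbp and Tef had the largest differences among the clock genes. Tef (chromosome 15, 81802673 to 81826863) had 30, 40.7 and 36.5 CPM in 3NC, 46.3, 45.8 and 46.1 in 5NC, 35.9, 44.3 and 39.3 in KD and 40.4, 44.1 and 37.8 in OV. All 5NC libraries stood above all others, and the remaining 3 groups overlapped. The log2 fold change in 5NC against 3NC was 0.37 ± 0.11 (95% interval 0.13 to 0.61; unadjusted p = 0.00569, adjusted p = 0.284). Tef was 1 of 10 clock genes without overlap in this comparison, beside 16.9% of all genes. In OV against 5NC it had −0.18 ± 0.11 and was again 1 of 10 without overlap, beside 15.2% of all genes. Dbp (chromosome 7, 45705100 to 45710203) had 4.5, 5.36 and 6.76 CPM in 3NC, 9.65, 5.46 and 8.52 in 5NC, 5.86, 6.93 and 7.33 in KD and 6.79, 7.65 and 6.12 in OV. Its 5NC libraries were spread from near the 3NC level to the 2 highest values of all. The log2 fold change in 5NC against 3NC was 0.51 ± 0.21 (95% interval 0.06 to 0.96; unadjusted p = 0.0287, adjusted p = 0.391), and in KD against 3NC 0.28 ± 0.21. These comparisons share the 3NC libraries.

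Arntl is of opposite phase to Dbp, Tef, Nr1d1 and Per2 in rhythmic organs, so the ratio of each to Arntl was formed on the FPKM scale in each library. For Dbp it was 1.8 ± 0.414 in 3NC, 2.75 ± 0.86 in 5NC, 2.77 ± 0.478 in KD and 2.24 ± 0.585 in OV (SD, n = 3). All KD libraries stood above all 3NC libraries in each of the 4 ratios. For Dbp the KD libraries began at 2.29 and the 3NC libraries ended at 2.28. For Nr1d1 the range was 4.21 to 5.75 in KD and 2.43 to 4.08 in 3NC, for Per2 0.811 to 0.863 and 0.598 to 0.634, and for Tef 5.05 to 6.52 and 3.66 to 4.44. In 5NC the ratio of Tef, 5.46 to 6.49, was also above all 3NC libraries, whereas those of Dbp, Nr1d1 and Per2 overlapped with 3NC. The OV libraries overlapped with 3NC in all 4 ratios, with the lowest value of the group in replicate 3 each time. The 4 ratios share Arntl as denominator, which was lowest in KD, and they are given as a description without a test. No ratio was formed for Nr1d2, also named above as running in antiphase to Arntl. The share of all genes whose ratio to Arntl separates KD from 3NC was not computed. Arntl itself did not overlap between KD and 3NC, as was the case for 16.5% of all genes. Dbp, Nr1d1, Per2 and Tef each overlapped there.

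Whether libraries differed along the clock cycle was examined through the 45 pairs of clock genes over the 12 libraries (log2 CPM, permutation tests with 100000 resamples, adjusted over the 45 pairs). Pearson's r passed for 6 pairs and Spearman's rho for 2. Arntl had a negative r with 6 of 7 of the genes Per1, Per2, Per3, Nr1d1, Nr1d2, Dbp and Tef, the exception being Nr1d2 (0.55). Of these 7 pairs 2 passed by r and 0 by rho, and the median r was −0.27. The values for Dbp (−0.36), Per2 (−0.27), Tef (−0.17) and Per3 (−0.05) did not pass. For Nr1d1 and Arntl r was −0.80 (permutation p = 0.00138, adjusted 0.024) and rho −0.67 (permutation p = 0.0207, adjusted 0.189). For Per1 and Arntl r was −0.79 (permutation p = 0.0016, adjusted 0.024) and rho −0.53 (adjusted 0.36). For Per1 and Nr1d1 r was 0.85 (permutation p = 0.00588, adjusted 0.0441) and rho 0.42 (adjusted 0.47). Per1 and Nr1d2 had the lowest r of all pairs, −0.84 (permutation p = 0.001, adjusted 0.024), with a rho of −0.90 (adjusted 0.009). Both genes were described above as E-box targets, and the sign is opposite to that of Per1 and Nr1d1. Per2 was positively correlated with Tef (r = 0.76, permutation p = 0.00342, adjusted 0.0385; rho 0.71, adjusted 0.189) and with Dbp (r = 0.75, permutation p = 0.00559, adjusted 0.0441; rho 0.65, adjusted 0.189). Nr1d1 and Cry2 passed by rho only (0.82, adjusted 0.0425; r = 0.74, adjusted 0.0514).

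Several of these relations were weaker without replicate 2 of 3NC and replicate 3 of OV. These 2 libraries were chosen as those farthest from the median of Per1 and of Nr1d1, which by itself tends to lower r. Without these 2 libraries r was −0.35 for Per1 and Arntl (permutation p = 0.312), 0.26 for Per1 and Nr1d1 (permutation p = 0.448), 0.25 for Nr1d1 and Cry2 (permutation p = 0.504) and −0.58 for Nr1d1 and Arntl (permutation p = 0.0862). It was −0.72 for Per1 and Nr1d2 (permutation p = 0.021). With group means removed and all 12 libraries kept, r was −0.76 for Per1 and Arntl, 0.87 for Per1 and Nr1d1, 0.77 for Nr1d1 and Cry2, −0.85 for Nr1d1 and Arntl and −0.81 for Per1 and Nr1d2, so these relations lay within groups as well, with the same 2 libraries included. For the Per2 pairs the libraries farthest from the median were replicates 1 and 3 of 5NC, without which r was 0.67 with Tef (permutation p = 0.0311) and 0.48 with Dbp (permutation p = 0.164). In both of the first 2 libraries Per1 and Nr1d1 were the lowest of the 12 and Nr1d2 the highest, and Arntl was highest in OV replicate 3 and next in 3NC replicate 2. They belong to different groups. They also had the 2 largest read totals (16355689 and 16120793) and the 2 lowest sums of 12 Sertoli cell markers (814 and 888 CPM, against 985 to 1609 in the others), and both stood apart on the first principal component of all genes (scores 29 and 30.3). OV replicate 1 had a score of 30.2 there with Per1 at 169 CPM. The part of these differences in the clock gene values was not tested.

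**Figure D3:**
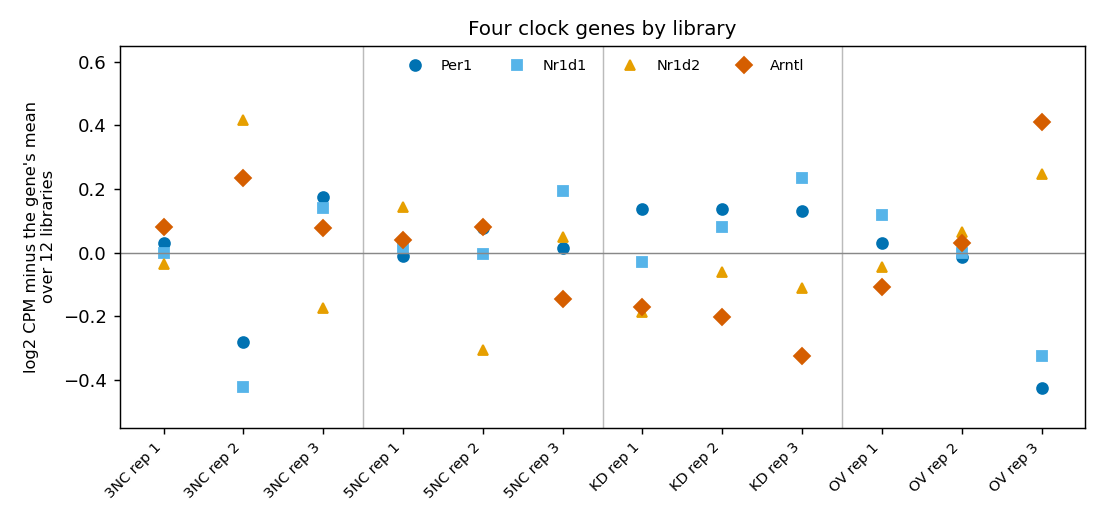
Log2 CPM of Per1, Nr1d1, Nr1d2 and Arntl in each library minus the gene's mean over the 12 libraries (vertical axis); grey lines separate the groups. In 3NC replicate 2 and OV replicate 3, Per1 and Nr1d1 lie below and Nr1d2 and Arntl above their means.

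Of 30 other genes of the clock (partners, kinases, ubiquitin ligases and further repressors), 29 were tested and 1 passed, Bhlhe40, which encodes the E-box repressor DEC1. Bhlhe40 (chromosome 6, 108660629 to 108666925) had 10, 15.1 and 13.1 CPM in 3NC, 6.66, 5.13 and 5.12 in 5NC, 6.63, 5.51 and 4.91 in KD and 7.24, 5.52 and 5.99 in OV. All 3NC libraries stood above all others. It was lower than in 3NC by a log2 fold change of −1.17 ± 0.18 in 5NC (edgeR adjusted p = 0.0107), −1.16 ± 0.18 in KD (0.0201) and −1.03 ± 0.18 in OV (0.029), comparisons that share the 3NC libraries. In these 3 comparisons 0.288%, 0.153% and 0.276% of all genes were called lower. In OV against 5NC it had 0.15 ± 0.19 (adjusted p = 0.765). Without 3NC replicate 2 the adjusted p was 0.0551 in 5NC, 0.1 in KD and 0.0843 in OV, and without 3NC replicate 3 it was 0.0529, 0.0699 and 0.11, with the same direction. The call was also lost in 5NC without 5NC replicate 2 (0.0599) or 3 (0.0974), in KD without KD replicate 1 (0.0538), 2 (0.145) or 3 (0.166), and in OV without OV replicate 2 (0.142) or 3 (0.0619). Nfil3, the repressor that competes with DBP and TEF at D-boxes and was picked here after its values were seen, had 8.15 ± 0.985 CPM in 3NC, 5.39 ± 0.709 in 5NC, 5.4 ± 0.535 in KD and 5.54 ± 0.962 in OV (SD, n = 3), without overlap between 3NC and the others, and did not pass (adjusted p = 0.234 in 5NC against 3NC). Clock, the partner of ARNTL, named for its role, had 45.6 ± 8.61 CPM in 3NC, 40.2 ± 6.89 in 5NC, 39.9 ± 2.16 in KD and 45.3 ± 3.99 in OV. The median log2 fold change of the 29 genes was −0.12 in 5NC against 3NC, −0.03 in KD against 3NC and 0.03 in OV against 5NC, beside 0.01, −0.00 and −0.00 over all genes tested. Of 18 tested genes often described as clock outputs, 0 passed in the test among the 4 groups, where 0.337% of all genes passed. An unadjusted p under 0.05 was found for 4 of these 18, beside 9.07% of all genes. Among them Por, the electron donor of cytochrome P450 enzymes, had the smallest (adjusted p = 0.526).

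Per1 and Per2 are known to respond quickly to cAMP and glucocorticoid signals as well as to the clock, so genes of such responses were set beside them. Of 25 immediate early genes 14 passed in the test among the 4 groups, beside 0.337% of all genes. Egr1, the transcription factor gene of smallest p among them, had 54.1, 50.7 and 46.8 CPM in 3NC, 53.4, 52.4 and 50.3 in KD, 6.11, 3.29 and 4.1 in 5NC and 5.38, 3.76 and 3.81 in OV. The 3NC and KD libraries thus lay far above those of 5NC and OV, with a log2 fold change of −3.48 ± 0.18 in 5NC against 3NC (edgeR adjusted p = 1.82e-07). In the same comparison Per1 had 0.04 ± 0.12 and Per2 0.27 ± 0.14. Not all of the 25 genes followed the pattern of Egr1. In KD against 3NC 3 of them were called lower, beside 0.153% of all genes. In KD against 5NC 7 were called higher, where 0.049% of all genes were called in either direction. Of 18 glucocorticoid and FOXO response genes 2 passed among the 4 groups, Errfi1 and Txnip. Errfi1, a feedback inhibitor of the EGF receptor, had −1.76 ± 0.14 in 5NC against 3NC, and Txnip, a thioredoxin inhibitor, 1.04 ± 0.15.

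**Figure D4:**
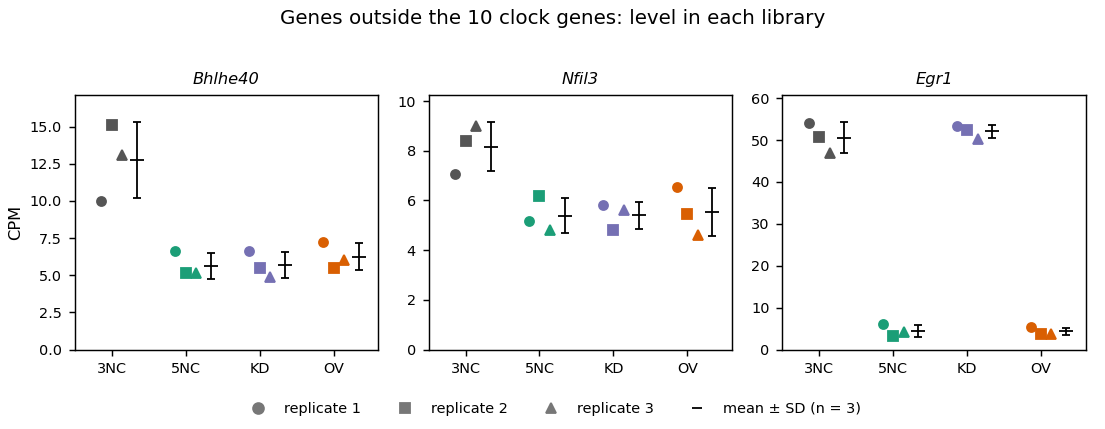
Level in CPM (vertical axes, from 0) of Bhlhe40, Nfil3 and Egr1 in each library, with the mean ± SD (n = 3) of each group. Bhlhe40 and Nfil3 are highest in the 3NC libraries, and Egr1 is near 50 CPM in 3NC and KD and below 7 CPM in 5NC and OV.

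The genes whose pattern over the 12 libraries was most like that of Dbp were, among 15203 genes with a mean of at least 1 CPM, Stim1 (r = 0.92), Wnt6 (0.91), Kifc1 (0.88) and Sars (0.88), and the most opposed were Rmnd1 (−0.90) and Ttc37 (−0.89). For Arntl they were Tmem260 (0.94), Slc25a53 (0.91), Rab33b (0.91) and Apip (0.90), and on the opposed side Pigyl (−0.89) and Oit1 (−0.89). These are the extremes of many correlations over libraries that share group and depth, given without a test, and 0 of the 12 genes differed among the 4 groups (edgeR smallest adjusted p = 0.508).

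Depth was even, with 15448427 to 16355689 reads per library. Markers of testis cells were present throughout: 8 genes of elongating spermatids summed to 18154 to 23723 CPM and 10 Leydig cell genes to 1437 to 3348 CPM. Sums of 10 leukocyte markers were 79.5 to 178 CPM in OV against 47.7 to 86.1 in the other groups. Sums of 4 epididymis genes were 14.1 to 121 CPM in 5NC and 0.749 to 12.2 elsewhere, and 0 of these 4 genes lacked reads in all libraries. All 12 Sertoli cell markers had a positive log2 fold change in 5NC against 3NC (median 0.26, beside 0.01 over all genes), 5 with an unadjusted p under 0.05 and 0 called. Replicate 1 of 5NC, with the most Dbp and Tef, had the highest Sertoli sum of the 12 libraries (1609 CPM) and the lowest epididymis sum of its group (14.1 CPM). The part of these cell markers in the Tef and Dbp values of 5NC was not tested.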

How the data were processed

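RNA-seq of 12 mouse testis libraries in 4 groups of 3 was analysed from a single deposited table. Per the file headers, the authors deposited a read count for each gene and library, taken to be an expected count since 88% are whole within 1e-06, and these values were rounded before testing. A further set of columns deposited by the authors holds normalised values, taken as FPKM (reads per length and library size). The headers do not name that unit, and it was inferred because, over 5204 genes with more than 500 reads, the value per read scaled inversely with library size (largest gap 0.528%). The build was mm10 per the submitters' processing notes. For aligner, counting program, strandedness and annotation the sources used here say nothing, so reads shared with antisense genes cannot be told apart. Another 18 per-sample columns, which match no library here, were not used.

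Differences were tested by edgeR 4.0.16 (R 4.3.3; TMM, robust quasi-likelihood, 1 fit of the 4 groups without covariates, filterByExpr with a minimum count of 10 and minimum total of 15), with Benjamini-Hochberg adjustment over 16320 genes and calls under 0.05. Each SE is the fold change on the log2 scale divided by the square root of F, and 95% intervals use the fit's t quantile; both are approximate. Log2 CPM carry a prior count of 2. Alternatives were DESeq2 1.42.0, limma 3.58.1 on log2 FPKM with pseudocounts 0.1 and 1, RLE factors, other filters, a replicate block, fewer groups and libraries left out. Same-numbered libraries of OV and 5NC deviated together (r = 0.16, 0.15 and 0.11), which met the rule for pairing. The OV against 5NC values and shares in the Results nevertheless come from the fit without pairing, and the counts with a replicate block are given below. No other pair of groups met the rule. The test was checked on simulated counts for KD against 3NC. It recovered 50% of changes set at 1.5-fold, 88% at 2-fold, 100% at 4-fold and 96% at 0.25-fold, so many smaller differences would be missed. The simulated counts took their spread from a trend over expression level. They held no extra spread of single genes or libraries, so recovery in the real libraries may be lower.

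The 10 genes and the lists were chosen with earlier results of these data known. By rule the text names these 10, the called genes among other clock genes, the genes most like Dbp and Arntl, and at most 3 of smallest p from each other list. Nfil3 and Clock were added. Of 192 list entries 190 matched the table. Coordinates come from the RefSeq table for GRCm38.p6, which matched 99.3% of the identifiers.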

Additional observations from a re-analysis of the deposited data

How the results depend on the processing

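In 1310 tests of single clock genes, over 22 alternatives and the 8 comparisons, 0 were called, the smallest adjusted p being 0.101 (Tef, 5NC against 3NC, without both OV replicate 3 and 3NC replicate 2). That setting and the replicate block within the OV and 5NC libraries were chosen after the data were seen.

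Counts over all genes moved more. With DESeq2 they were 50 in OV against 5NC, 71 in KD against 3NC, 148 in 5NC against 3NC, 108 in OV against 3NC, 35 in KD against 5NC, 144 in OV against KD, 96 for the difference of effects and 283 among the 4 groups, in place of 0 (1697 at an unadjusted p under 0.05), 29, 59, 52, 8, 9, 10 and 55 with edgeR. With limma on FPKM and a pseudocount of 0.1 they were 16 in KD against 3NC, 31 in 5NC against 3NC, 28 in OV against 3NC, 6 for the difference of effects and 30 among the 4 groups, and with a pseudocount of 1, 32 in 5NC against 3NC. Fitting the libraries compared alone gave 18 in OV against 3NC, 15 in KD against 5NC and 33 in OV against KD. The replicate block gave 29 in OV against 3NC and 31 in OV against KD, and within the OV and 5NC libraries 215, with 0 clock genes. Without both OV replicate 3 and 3NC replicate 2 they were 36 in OV against 5NC, 18 in KD against 3NC, 135 in OV against 3NC, 12 in KD against 5NC, 133 in OV against KD and 144 among the 4 groups. With single libraries left out they ranged from 0 to 5 in OV against 5NC, 10 to 22 in KD against 3NC, 16 to 66 in 5NC against 3NC, 27 to 81 in OV against 3NC, 4 to 10 in KD against 5NC, 5 to 74 in OV against KD, 4 to 23 for the difference of effects and 28 to 126 among the 4 groups. The cause was not tested.

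Some log2 fold changes near 0 changed sign with single libraries left out, as their ranges show: Per1 in 5NC against 3NC (−0.0707 to 0.15), Per3 in OV against 5NC (−0.20 to 0.0669), KD against 3NC (−0.0121 to 0.17) and 5NC against 3NC (−0.0797 to 0.19), Nr1d2 in OV against 5NC (−0.0087 to 0.21) and 5NC against 3NC (−0.23 to 0.0866), Arntl in OV against 5NC (−0.0358 to 0.24), Cry1 in KD against 3NC (−0.0667 to 0.06), and Cry2 in OV against 5NC (−0.12 to 0.0077), KD against 3NC (−0.11 to 0.12) and 5NC against 3NC (−0.074 to 0.15). Without both OV replicate 3 and 3NC replicate 2 the values were −0.0707 for Per1, 0.0867 for Nr1d2 and −0.07 for Cry2 in 5NC against 3NC, −0.0377 for Arntl in OV against 5NC, and 0.06 for Cry1 and −0.11 for Cry2 in KD against 3NC. The r of Nr1d1 and Nr1d2, −0.70, became 0.0597 without the 2 libraries farthest from the median. Bhlhe40 kept its direction against 3NC in all alternatives (−1.31 to −0.76); its call in OV against 3NC was lost with the replicate block (adjusted p = 0.0595), with the compared libraries alone (0.184) and with limma (0.0865 and 0.0583), and in KD against 3NC with limma at a pseudocount of 0.1 (0.0648). Without OV replicate 3, the log2 fold change in OV against KD was 0.20 for Arntl, in place of 0.37, and −0.12 for Per1, in place of −0.26. Dbp had the largest SE among the clock genes (0.21 in 5NC against 3NC) on 261 to 374 reads per group.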
